A study of Bos taurus with 18 samples.

Results

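Rumen papillae of cows fed alfalfa hay were compared with those of cows fed rice straw. The comparison held 12 of the 18 cows of the series, 6 on the alfalfa hay diet (AH) and 6 on the rice straw diet (RS), and 13201 of the 24616 genes in the deposited table, namely those with over 1 CPM in 3 or more cows of either diet (CPM are the reads of a gene scaled by those on all genes of a cow). All were multiparous lactating Holstein cows, slaughtered after 14 weeks on their diet. The forage tested made up 23% of dry matter in AH, where 7% was wild rye hay, and 30% in RS. Concentrate (55%) and corn silage (15%) were common to both. The labels do not give the age of the cows, and each cow received 1 diet. Cows are numbered as in the labels, so that AH3 is the third AH cow. The question was which genes of the papillae differ between a leafy legume forage of high quality and a coarse straw of low quality.

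The rumen wall is lined by a stratified squamous epithelium that is thrown into papillae. Its outer cells cornify and bear the wear of the feed and the contact with microbes, while the inner layers take up volatile fatty acids and move urea from the blood into the rumen. Under it lies a core of fibroblasts, vessels and immune cells, which is sampled with the papilla.

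The CPM rested on 17731570 to 32252177 reads on genes per cow, with a median of 20621803 in AH and 24913740.5 in RS, and a count of 0 left room for up to 0.0930 to 0.169 CPM (3 reads, counting error only). Of the squamous markers, *TGM3*, the epidermal transglutaminase that cross-links the cornified envelope, stood at 133 to 2019 CPM, while *KRT36* was at 0 in 1 cow and no basal keratin could be matched by symbol. AH3 and RS5 lay at the ends of the first principal component, at -62.8 and 64.4, and it held 34.3% of the variance. The cows next to them were RS3 at -46.3 and AH4 at 47.0. The summed CPM of 13 fibroblast and matrix genes was 2290 in AH3, 2786 in RS3 and 1291 in RS4, against 122 to 818 in the other AH cows and 356 to 467 in the other RS cows. In RS5 the heat shock genes were high. Ratios of named genes that moved more than 1.5-fold without 1 cow are given with and without it. In bulk tissue, fewer cells of a type and less RNA per cell cannot be told apart.

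*S100A9* was the gene that passed both thresholds, an adjusted p under 0.05 from limma and a more than 2-fold ratio of mean CPM. That is 1 gene of 13201 (0.00758%), and it was lower in AH. No gene was DE with a higher level in AH (0.00%), and in the exact permutation test, whose smallest p is 0.0022 for 6 against 6 cows, every gene had an adjusted p of 1.00 and 298 (2.26%) an unadjusted p under 0.05. Without adjustment, limma gave p under 0.05 for 264 genes (2.00%), of which 150 were higher and 114 lower in AH. This split was not stable, since after TMM scaling 139 were higher and 185 lower, and after median-of-ratios scaling 142 and 180. It was 106 and 210 without RS5, 130 and 251 without AH2, 98 and 148 without RS2, and 244 and 941 with sample weights. Over all genes tested, 55.4% had a higher and 44.6% a lower mean in AH. The shares of 2.00% (limma) and 2.26% (exact) with an unadjusted p under 0.05 are smaller than that level gives without any difference.

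A more than 2-fold ratio of mean CPM was found for 208 genes (1.58%), 96 of them higher (0.727%) and 112 lower in AH (0.848%). Of these, 82 remained above 2-fold whichever cow was left out, 28 of the higher and 54 of the lower genes. Without RS5, 31 of the 96 higher genes fell under 2-fold, and without AH3 16 did. The cows of the diets did not overlap for 19 genes (0.144%), of which 9 were lower (0.0682%) and 10 higher (0.0758%) in AH. Under random labels a gene separates the 6 and 6 cows with a probability of 0.0022, the smallest exact p. The share of 0.144% is below that, so lack of overlap alone does not mark a gene as different. On the reads recovered from the CPM, the quasi-likelihood test of edgeR called 1 gene, DESeq2 called 18 (0.136%), 12 lower (0.0909%) and 6 higher (0.0455%), and the exact test of edgeR with a common dispersion called 129 (0.977%), 77 lower (0.583%) and 52 higher (0.394%). Of the 40 genes listed by the study, these tests called 1, 9 and 28.

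The genes named here are those that the study lists for AH vs. RS, 22 as higher and 18 as lower in AH. The study chose them on these cows, so their direction is not independent evidence. All 40 had the listed direction of the mean. Among the 22 higher genes the median log2 ratio of mean CPM was 1.34, against 0.02 over all genes tested, and limma gave an unadjusted p under 0.05 for 17 (1.14% of all genes). The exact permutation test did so for 11 (1.33%). Among the 18 lower genes the median was -1.24, and the counts were 12 for limma (0.864%) and 11 for the exact test (0.932%). Of the 40, 19 stayed above 2-fold whichever cow was left out, and 4 (*CFB*, *HSPB8*, *BAG3* and *HSPA1A*) were under 2-fold with all cows. None of the 33 other genes that the study lists for its further comparisons had an unadjusted p under 0.05 here (limma or exact), and their median log2 ratio was -0.48. Every matched member of the gene lists below is 1 of these 40 or 33 genes. A direction shared within a list is therefore not independent evidence either.

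**Figure D1:**
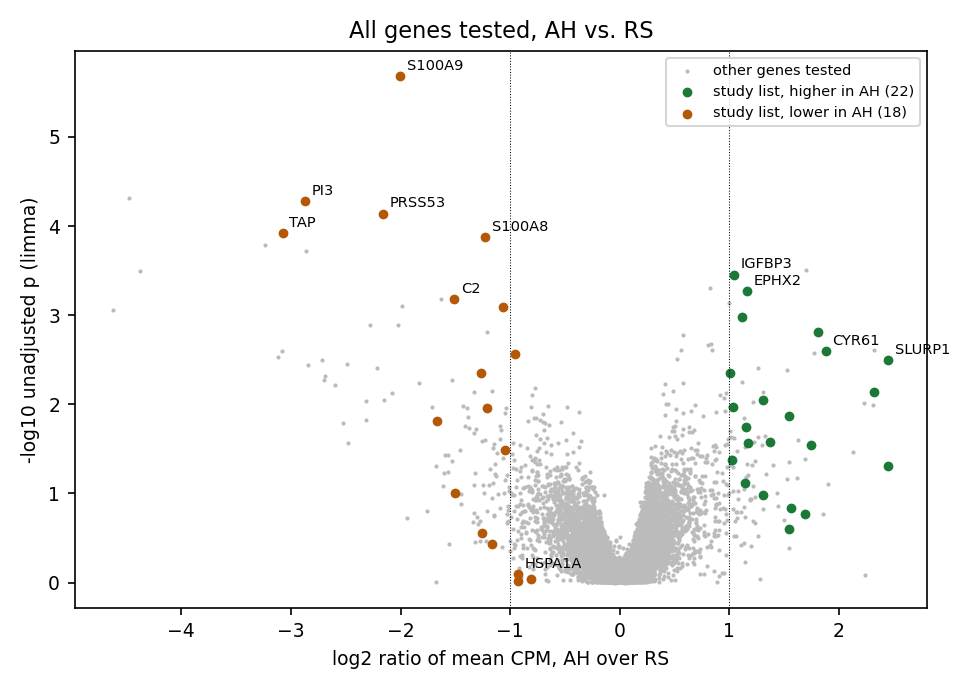
Log2 ratio of mean CPM, AH over RS (horizontal axis), against -log10 of the unadjusted limma p (vertical axis) for the 13201 genes tested, with the genes of the study's list in colour and dotted lines at a 2-fold ratio. *S100A9* lies highest, and *HSPA1A* lies at the foot of the plot with a log2 ratio of -0.93.

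The pair of genes that encode calprotectin was lower in AH. *S100A8* and *S100A9* encode calcium-binding proteins that join into calprotectin, which binds zinc and manganese and is known from neutrophils and from stressed squamous epithelium. *S100A9* (ENSBTAG00000006505) ranged from 161 to 575 CPM in AH with a median of 464, and from 1132 to 2167 in RS with a median of 1993. Every AH cow lay below every RS cow. Mean CPM were 445 ± 151 for AH and 1781 ± 450.4 for RS (SD, n = 6 each), a 4.00-fold higher level in RS (log2 ratio -2.00, standard error 0.25). The adjusted p of *S100A9* was 0.0274 with limma, 0.0347 with the quasi-likelihood test of edgeR and 5.38e-10 with DESeq2. It was no longer under 0.05 with limma without AH2 (0.108), AH6 (0.0818), the first RS cow (0.133), RS2 (0.131), RS3 (0.0967) or RS6 (0.0844), while the log2 ratio stayed between -2.10 and -1.83 whichever cow was left out.

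*S100A8* (ENSBTAG00000012640) ranged from 2052 to 4575 CPM in AH with a median of 2868, and from 4800.3 to 10358 in RS with a median of 7469.6. Here, too, the cows of the diets did not overlap. Its log2 ratio was -1.23 (standard error 0.25), with an adjusted p of 0.292 from limma, an exact permutation p of 0.0022 and an adjusted p of 0.00177 from DESeq2. The levels of the genes did not keep a fixed ratio. Set per 100 CPM of *S100A8* in the same cow, *S100A9* stood at 5.59 to 22.8 in AH and 14.5 to 31.2 in RS, with 3 AH cows below all RS cows (exact permutation p = 0.0346, chosen after the values were seen). None of 5 neutrophil marker genes could be matched to a row by symbol, so the part of neutrophils in these levels was not tested.

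Genes of antimicrobial peptides and protease control had lower means in AH. Of the 7 matched members of that list, 7 had a lower mean in AH, against 44.6% of all genes. The study lists *TAP*, *LAP*, *PI3* and *PRSS53* as lower in AH than in RS. It lists *LPO*, *DUOXA2* and *SLC6A14* as lower in AH than in cows fed corn stover. All 7 were thus chosen on AH cows, and their shared direction is not independent evidence. An unadjusted p under 0.05 was found for 4 with limma (0.864% of all genes) and for 4 in the exact permutation test (0.932%), and 3 did not overlap between the diets (0.0682%). The median log2 ratio of the 7 was -1.67. Summed over them, the CPM of a cow was 33.3 to 349 in AH and 464 to 1647 in RS. *PI3* and *TAP* weighed most in this sum, with mean CPM of 64.2 and 38.6 in AH and 468 and 326 in RS.

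*TAP* (ENSBTAG00000048171), the tracheal antimicrobial peptide, is a beta-defensin of bovine epithelia. It ranged from 1.51 to 102 CPM in AH with a median of 29.7, and from 139.8 to 611.5 in RS with a median of 329. No AH cow reached the level of an RS cow. With 8.43-fold more CPM in RS (log2 ratio -3.08, standard error 0.68), the adjusted p was 0.292 with limma, and the exact permutation p was 0.0022. *LAP* (ENSBTAG00000027225), the lingual antimicrobial peptide of the same family, ranged from 0.229 to 39.2 CPM in AH with a median of 20.6 and from 16.9 to 115 in RS with a median of 53.8. Its diets overlapped, since 2 AH cows lay below all RS cows (log2 ratio -1.67, exact permutation p = 0.0303). Beta-defensin genes have close copies, and reads with several mapping hits were removed before counting, so the levels of both are uncertain.

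*PI3* (ENSBTAG00000039028) encodes elafin, an inhibitor of neutrophil elastase that is cross-linked into the cornified envelope. It ranged from 10.4 to 135 CPM in AH with a median of 47.8, and from 137 to 866 in RS with a median of 403. The highest AH cow, AH5, lay just below the lowest RS cow, RS5. The level was 7.30-fold higher in RS (log2 ratio -2.87, standard error 0.58, adjusted p = 0.233 from limma and 0.00324 from DESeq2). *PRSS53* (ENSBTAG00000031551), a serine protease gene, ranged from 4.36 to 32.8 CPM in AH with a median of 8.55, and from 36.7 to 113 in RS with a median of 53.2. Its diets did not overlap either, and the log2 ratio was -2.16 (standard error 0.57, adjusted p = 0.239 from limma and 0.00324 from DESeq2). The other members had small differences. *LPO*, the lactoperoxidase, *DUOXA2*, the maturation factor of a hydrogen peroxide source, and *SLC6A14*, an amino acid transporter, had log2 ratios of -0.17, -0.55 and -0.66 and no unadjusted p under 0.05.

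**Figure D2:**
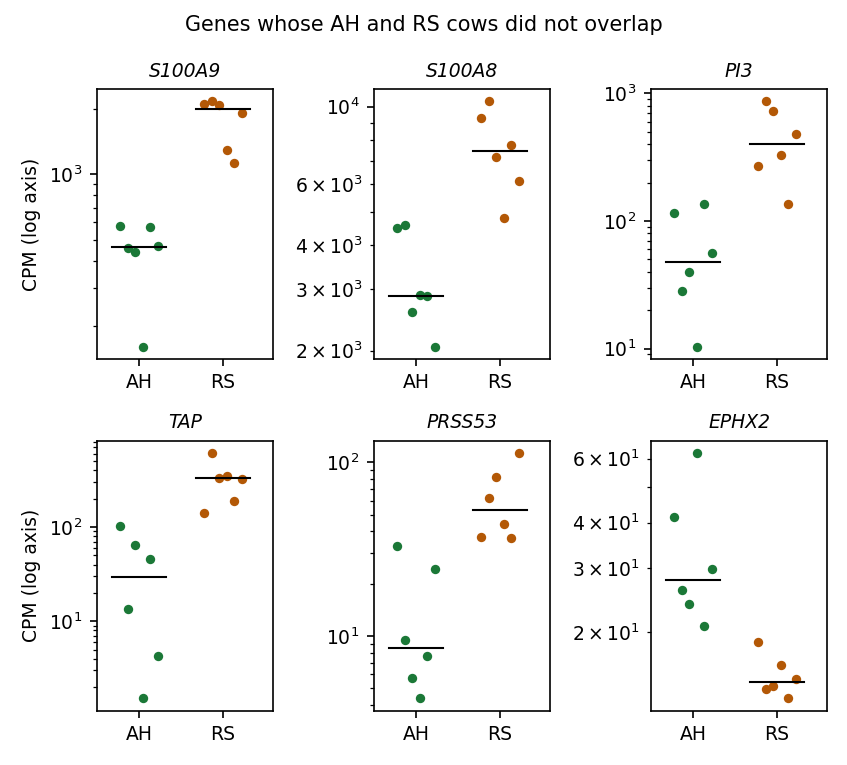
CPM of each cow on a log axis (vertical) by diet for the 6 named genes whose cows did not overlap, with the median of each diet as a bar. For *S100A9* the AH cows sit between 161 and 575 CPM and the RS cows between 1132 and 2167, and only *EPHX2* was higher in AH.

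Genes of squamous differentiation differed in both directions. Of 6 matched members, 3 had a higher and 3 a lower mean in AH, and limma gave an unadjusted p under 0.05 for 2 higher (1.14% of all genes) and 2 lower members (0.864%). The exact permutation test did so for 2 higher (1.33%) and 1 lower member (0.932%). *SLURP1* (ENSBTAG00000016209), a secreted peptide of keratinocytes that acts on nicotinic acetylcholine receptors, ranged from 8.35 to 153 CPM in AH with a median of 41.6, and from 5.19 to 16.5 in RS with a median of 8.47. In AH, 4 cows lay above all RS cows. The log2 ratio was 2.45 (standard error 0.65), or 1.80 without AH6, with an adjusted p of 1.00 from limma, 0.0360 from DESeq2 and an exact permutation p of 0.0195. *PADI1* (ENSBTAG00000002138), which turns arginine of keratins and filaggrin into citrulline, ranged from 2.09 to 53.9 CPM in AH with a median of 14.4 and from 0.403 to 12.9 in RS with a median of 1.30. The means differed by a log2 ratio of 2.32 (exact permutation p = 0.0325), with 3 AH cows above all RS cows, and the ratio was 2.99 without RS4.

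*DSG1*, a desmosomal cadherin of the upper layers, had mean CPM of 34.5 ± 40.5 in the 6 AH cows and 11.7 ± 10.0 in the 6 RS cows (SD). Its AH level rested on AH2 and AH6 at 68.5 and 101 CPM, and the log2 ratio of 1.56 was 0.85 without AH6 (exact permutation p = 0.247 with all cows). *TGM3* ran the other way. It ranged from 133 to 834 CPM in AH with a median of 466, and from 597 to 2019 in RS with a median of 1088, so that 4 AH cows lay below all RS cows (log2 ratio -1.27, exact permutation p = 0.0216). *TGM2*, the tissue transglutaminase, which is made in many cell types, had a log2 ratio of -1.05 that was -1.91 without AH3, the cow with 139.9 CPM against 16.7 to 28.0 in the other AH cows (exact permutation p = 0.0909 with all cows). *KRT36*, a hair type keratin, reached 25.7 CPM in the first RS cow and 10.9 in RS6 and was at most 0.819 in the other RS cows, against 0.688 to 3.61 in AH. Its log2 ratio of the means was -1.67, or -0.32 without the first RS cow, and that of the medians was 1.69.

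Complement genes had lower means in AH for 5 of 6 matched members, against 44.6% of all genes, with a median log2 ratio of -0.34. Of these 2 had an unadjusted p under 0.05, both with limma (0.864% of all genes) and in the exact permutation test (0.932%). All 6 members come from the study's table of genes chosen on cows of this series, so their direction is not independent evidence. *C2* and *CFB* encode the paralogous proteases of the classical and the alternative C3 convertase, and they neighbour each other in the RefSeq gene table. *C2* (ENSBTAG00000007450) ranged from 3.67 to 23.2 CPM in AH with a median of 6.31, and from 19.9 to 49.4 in RS with a median of 24.3. *CFB* (ENSBTAG00000046158) ranged from 30.4 to 187 CPM in AH with a median of 65.1, and from 100.03 to 191 in RS with a median of 161. For both genes 5 AH cows lay below all RS cows, and the AH cow that did not was AH3.

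The log2 ratio of *C2* was -1.51 (standard error 0.52, exact permutation p = 0.0087) and -1.93 without AH3. That of *CFB* was -0.96 (standard error 0.45, exact permutation p = 0.0195) and -1.44 without AH3. Without AH3 the adjusted p of *CFB* with limma was 0.0579 against 1.00 with all cows. *C3*, the central component, had a log2 ratio of -0.49 with all cows and -1.86 without AH3, where it reached 229 CPM against 8.63 to 34.7 in the other AH cows. *C7*, a component of the membrane attack complex, reached 458 CPM in AH3, and its log2 ratio of 0.18 became -1.44 without that cow. The receptor *CR2* had a log2 ratio of -0.19 with all cows, -2.96 without AH3 and 1.19 without RS3. Fibroblast and macrophage markers were also high in AH3, and their part in the complement levels was not tested.

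**Figure D3:**
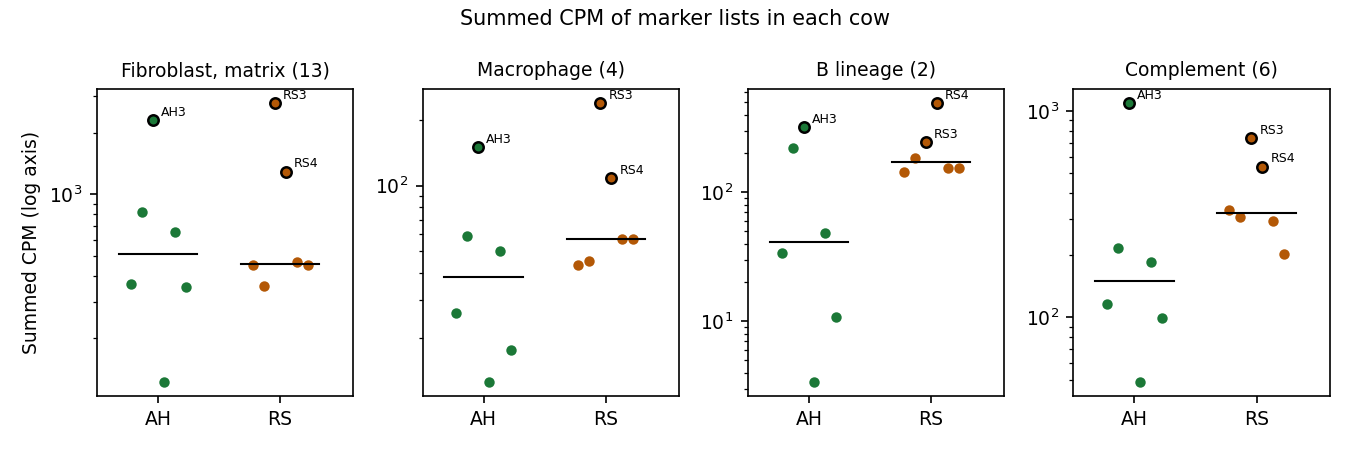
Summed CPM of each cow on a log axis (vertical) by diet for the matched fibroblast and matrix, macrophage, B lineage and complement genes, with the median of each diet as a bar. AH3 lies at the top of AH in each panel, with 2290 CPM of fibroblast and matrix genes. *CR2* is counted in both the B lineage and the complement sum.

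Markers of cells other than keratinocytes had mostly lower means in AH. For the fibroblast and matrix list, 13 of 19 symbols were matched. All 13 had a lower mean in AH, against 44.6% of all genes, with a median log2 ratio of -0.53. None had an unadjusted p under 0.05 (limma or exact). The study lists all 13 as higher in RS than in cows fed corn stover, a choice that favours a high mean in RS. Their sums overlapped widely, at 122 to 2290 CPM in AH and 356 to 2786 in RS, and none of the 13 was at 0 in a cow. The median sum was 511 CPM in AH and 460 in RS, the opposite order to the means. The 4 matched macrophage genes summed to 12.7 to 150.4 CPM in AH and 43.4 to 239 in RS, with *CD5L* at 0 in 1 cow. Of them *AIF1* (ENSBTAG00000020554), an actin-binding protein of macrophages, ranged from 6.84 to 28.2 CPM in AH with a median of 16.3 and from 26.4 to 42.1 in RS with a median of 34.7. All AH cows but AH3 lay below all RS cows (log2 ratio -1.07, standard error 0.30, exact permutation p = 0.0043, adjusted p = 0.600 from limma). It was the only 1 of the 4 with an unadjusted p under 0.05 (0.864% of all genes with limma, 0.932% with the exact test). For the other members *LYVE1*, *Cd209f* and *CD5L* the exact permutation p was 0.602, 0.719 and 0.277.

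The B lineage gene *IGLL1*, an immunoglobulin light chain-like gene with close copies, ranged from 3.35 to 246 CPM in AH with a median of 37.1, and from 143 to 472 in RS with a median of 166. In AH2 and AH3 it lay within the RS range, and in the other 4 AH cows below it (log2 ratio -1.21, or -1.80 without AH3, exact permutation p = 0.0455 with all cows). The other matched B lineage gene was *CR2*, which is also in the complement list. Its log2 ratio was -0.19 (exact permutation p = 0.703), or -2.96 without AH3 and 1.19 without RS3. No T cell, endothelium or smooth muscle marker could be matched.

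Growth signal genes had higher means in AH. All 5 matched members of that list had a higher mean in AH, against 55.4% of all genes, and an unadjusted limma p under 0.05 (1.14% of all genes). In the exact permutation test 3 passed at that level as well (1.33%), and the median log2 ratio was 1.15. All 5 are on the study's list. *CYR61* and *NOV* encode the matricellular CCN proteins 1 and 3, which bind integrins, *IGFBP3* the main binding protein of insulin-like growth factors, *ID1* an inhibitor of basic helix-loop-helix factors, and *APOLD1* an immediate early gene product of endothelium.

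*CYR61* (ENSBTAG00000009844) ranged from 30.4 to 223 CPM in AH with a median of 52.9, and from 8.38 to 35.1 in RS with a median of 24.7. The log2 ratio was 1.88 (standard error 0.55, exact permutation p = 0.0065), and 1.39 without AH5. *NOV* (ENSBTAG00000002080) ranged from 64.8 to 238 CPM in AH with a median of 131, and from 49.7 to 85.0 in RS with a median of 57.4 (log2 ratio 1.12, standard error 0.29, exact permutation p = 0.0087). *IGFBP3* (ENSBTAG00000003994) ranged from 65.5 to 161 CPM in AH with a median of 103, and from 33.9 to 69.7 in RS with a median of 53.5 (log2 ratio 1.04, standard error 0.24, exact permutation p = 0.0065). For each of these 3 genes, 5 AH cows lay above all RS cows, and AH5 was the highest.

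The cow within the RS range was AH3 for *CYR61* and *IGFBP3* and AH4 for *NOV*. The adjusted p with DESeq2 was 0.0155 for *CYR61*, 0.0357 for *NOV* and 0.00324 for *IGFBP3*, while limma gave 1.00, 0.689 and 0.421. *ID1* stood at 19.2 CPM in AH3, below all RS cows, and at 47.5 to 112 in the other AH cows, all above the RS range of 20.6 to 40.7. Its log2 ratio was 1.15 with all cows (exact permutation p = 0.0563) and 1.35 without AH3. *APOLD1* lay above the RS range in AH2 and AH5 at 75.0 and 87.9 CPM, and its log2 ratio of 1.17 was 0.81 without AH5 (exact permutation p = 0.0649 with all cows).

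Genes of fatty acid and detoxification metabolism had higher means in AH for all 5 matched members, against 55.4% of all genes, with a median log2 ratio of 1.16. The study lists *EPHX2*, *PDK4*, *FABP4* and *VNN2* as higher in AH than in RS. It lists *UGT2B17* as lower in RS than in cows fed corn stover, so the shared direction is not independent evidence. Unadjusted limma p under 0.05 were found for 3 (1.14% of all genes), and exact permutation p under 0.05 for 2 (1.33%). *EPHX2* (ENSBTAG00000015241), the soluble epoxide hydrolase that opens fatty acid epoxides, ranged from 20.8 to 62.2 CPM in AH with a median of 27.9, and from 13.2 to 18.8 in RS with a median of 14.6. It was the named gene for which all 6 AH cows lay above all RS cows. The log2 ratio was 1.16 (standard error 0.28, exact permutation p = 0.0022), with an adjusted p of 0.550 from limma and 0.0231 from DESeq2. *PDK4* (ENSBTAG00000014069), the kinase that shuts off pyruvate dehydrogenase when fatty acids are burnt, ranged from 43.6 to 266 CPM in AH with a median of 125 and from 22.985 to 88.8 in RS with a median of 60.1. In AH, 4 cows lay above all RS cows (log2 ratio 1.31, standard error 0.43, exact permutation p = 0.0303).

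*FABP4*, a fatty acid carrier of adipocytes and macrophages, ranged from 156 to 823.5 CPM in AH and from 62.4 to 467 in RS, a log2 ratio of 1.03 with an exact permutation p of 0.0996. It was the only matched gene of the 4 adipocyte markers, so the part of fat cells in its level was not tested. *VNN2*, a pantetheine hydrolase, and *UGT2B17*, a glucuronosyltransferase of a family with close copies, had log2 ratios of 1.31 and 0.88 (exact permutation p = 0.173 and 0.177).

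The urea genes had higher means in AH. *SLC14A1* (ENSBTAG00000019870) encodes the urea transporter UT-B, through which blood urea enters the rumen, and ranged from 338 to 1287 CPM in AH with a median of 783.5 and from 177 to 517 in RS with a median of 389.9. All AH cows but AH3 lay above all RS cows. Mean CPM were 774 ± 306 for AH and 387 ± 122 for RS (SD, n = 6 each). The ratio was 1.00 on the log2 scale (standard error 0.30, exact permutation p = 0.0152) and 0.80 without AH4. *ARG1*, the arginase that releases urea from arginine, ranged from 29.1 to 359 CPM in AH with a median of 122 and from 14.1 to 100.02 in RS with a median of 71.2. With 4 AH cows above all RS cows, its log2 ratio was 1.14 (exact permutation p = 0.160), and 0.66 without AH6.

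**Figure D4:**
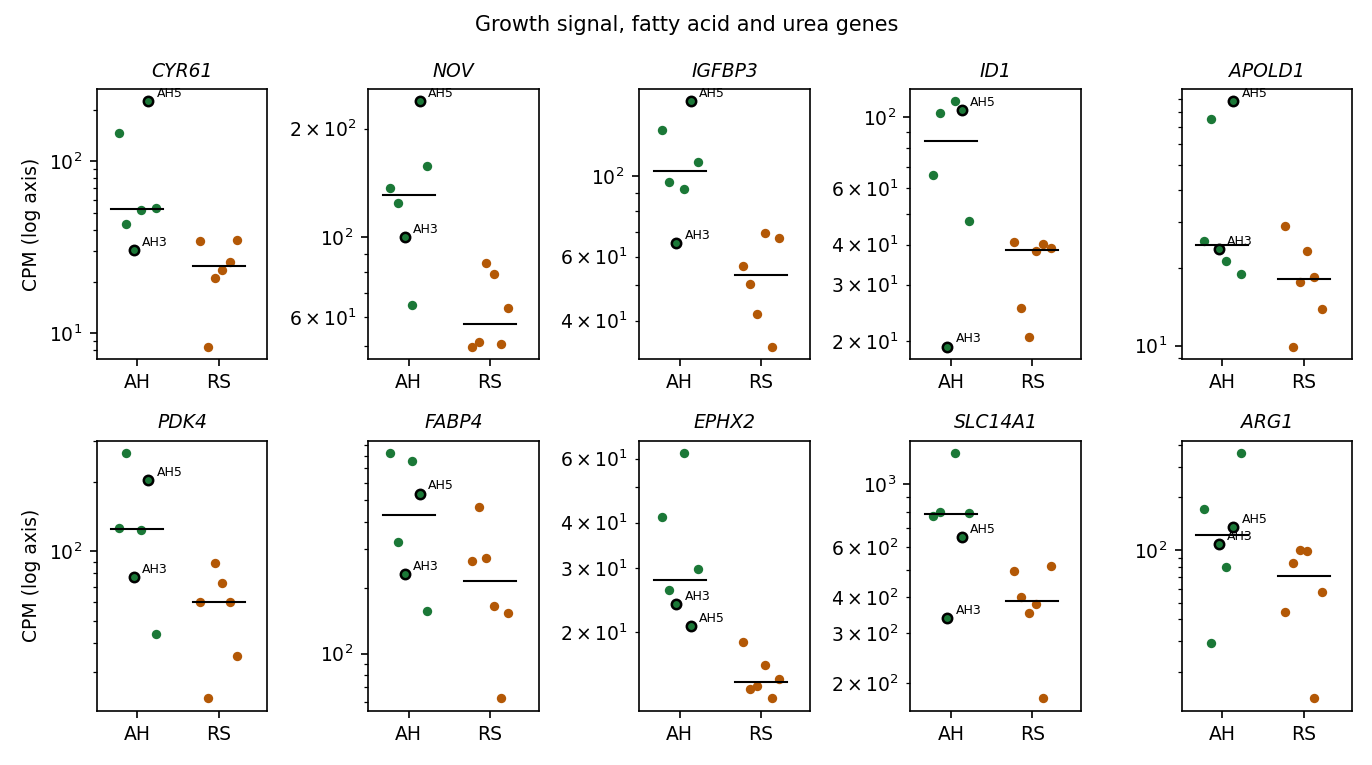
CPM of each cow on a log axis (vertical) by diet for 5 growth signal genes (upper row) and 5 fatty acid and urea genes (lower row), with the median of each diet as a bar and AH3 and AH5 marked. AH5 is the highest cow for *CYR61*, *NOV*, *IGFBP3* and *APOLD1*, and AH3 lies at 338 CPM for *SLC14A1*.

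The heat shock genes had an extreme level in RS5, and the direction of most of them rested on that cow. *HSPA1A*, the inducible HSP70, *HSPH1*, its nucleotide exchange factor, *BAG3* and *HSPB8*, which together with HSP70 direct misfolded proteins to autophagy, and the stress-inducible *ZFAND2A* had log2 ratios of -0.93, -0.67, -0.93, -0.81 and -0.93. The exact permutation p lay between 0.859 and 0.972, and *HSPA1A* has a near-identical copy, so its level is uncertain. RS5 held 9861 CPM of *HSPA1A* against 223 to 1181 in the other RS cows and 348 to 1766 in AH. It held 598 CPM of *HSPB8* against 29.5 to 65.2 in the other RS cows, and 783 of *BAG3* against 30.7 to 112.

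Without RS5 the direction of these 5 genes turned, with log2 ratios of 0.86 for *HSPA1A*, 0.49 for *HSPH1*, 0.75 for *BAG3*, 0.83 for *HSPB8* and 1.48 for *ZFAND2A*, whose ratio was -1.81 without AH1. The ratios of the medians, in which RS5 weighs no more than another cow, were also above 0, at 0.79, 1.00, 0.68, 0.63 and 1.00. The HSP40 gene *DNAJA1*, a co-chaperone of HSP70, stood apart from them. It ranged from 7.20 to 96.4 CPM in AH with a median of 39.98, and from 6.51 to 35.8 in RS with a median of 12.8 (log2 ratio 1.54, standard error 0.55, exact permutation p = 0.0476). RS5 was the highest RS cow for this gene as well, and without it the log2 ratio was 1.96.

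**Figure D5:**
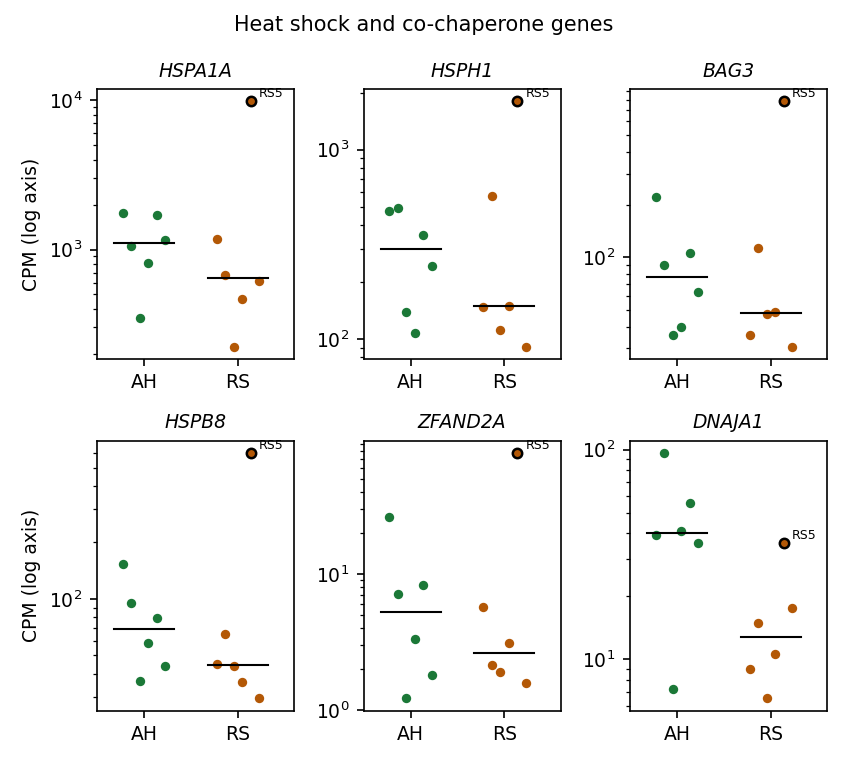
CPM of each cow on a log axis (vertical) by diet for 6 heat shock and co-chaperone genes, with the median of each diet as a bar and RS5 marked. RS5 lies at 9861 CPM for *HSPA1A*, above all other cows, while *DNAJA1* had the higher median in AH.

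Antigen presentation and plasma protein genes overlapped between the diets. *HLA-DQA1* and *HLA-DQB1*, chains of an MHC class II molecule whose alleles and copies differ between cattle, had log2 ratios of -1.26 and -1.17 with exact permutation p of 0.290 and 0.485, and the ratio of *HLA-DQA1* was -2.18 without AH3. *HLA-DQA1* lay under 1 CPM in 3 AH and 2 RS cows and at 15.004 to 62.7 in the other 7. *SAA1*, an acute phase protein, had a log2 ratio of -1.51 that was -0.83 without the first RS cow, which had 88.6 CPM. *TTR*, the thyroxine carrier transthyretin, reached 49.0 CPM in AH5, and its log2 ratio of 1.54 was 0.27 without that cow. *AHSG*, the calcium-binding fetuin-A, had mean CPM of 14.1 ± 9.51 on AH and 5.45 ± 3.51 on RS (SD, n = 6 each), a log2 ratio of 1.37 (exact permutation p = 0.0671).

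Of the remaining listed genes, *ENPEP* (ENSBTAG00000008332), the aminopeptidase that cleaves angiotensin II, ranged from 3.38 to 13.7 CPM in AH with a median of 7.05 and from 0.157 to 4.95 in RS with a median of 2.35. In AH, 5 cows lay above all RS cows (log2 ratio 1.81, standard error 0.53, exact permutation p = 0.0043, adjusted p = 0.845 from limma). *ANKRD24*, an ankyrin repeat gene, had mean CPM of 39.0 ± 14.4 on AH and 19.1 ± 15.8 on RS (SD, n = 6 each), with an exact permutation p of 0.0346. *CRISP3*, a secreted cysteine-rich protein, *TPRG1* and the signal recognition particle RNA *Metazoa_SRP* had log2 ratios of 1.69, 1.74 and 2.44 with exact permutation p of 0.266, 0.0801 and 0.102. That of *Metazoa_SRP* was 3.45 without RS5 and 1.74 without AH1.

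Of the 19 genes that did not overlap between the diets (0.144% of all genes tested), 13 had no symbol. Of these, 4 were lower and 9 higher in AH, with log2 ratios of -4.37 to 1.70. As said above, that share is below the probability under random labels, so lack of overlap alone does not mark them as different. The 4 identifiers given next, which are not among these 13, were picked by their ratio and passed the filter only through the diet where they were high, which favours a difference, so their values are a description. ENSBTAG00000013578 was at 0 to 1.13 CPM in AH with a median of 0.256 and at 0.787 to 17.6 in RS with a median of 8.29, with 5 AH cows below all RS cows. It exceeded 1 CPM in 1 AH and 5 RS cows, and its log2 ratio was -4.48 (standard error 0.75). ENSBTAG00000015676 had no read in 5 AH cows and 0.275 CPM in AH4, and up to 1.89 CPM in RS, where it was at 0 in RS6. In the other direction, ENSBTAG00000004407 averaged 1.41 ± 0.840 CPM on AH and 0.283 ± 0.193 on RS, and ENSBTAG00000021190 averaged 2.26 ± 2.82 and 0.458 ± 0.324 (SD, n = 6 each). Their log2 ratios were 2.315 and 2.306, the latter 1.285 without AH6. Both had 5 AH cows above all RS cows, and neither exceeded 1 CPM in an RS cow.

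A gene counted as detected in a diet when it had more than 1 CPM in at least 3 of 6 cows. By this rule 12943 genes were detected in AH, 13020 in RS and 12762 in both. The 181 genes detected in AH but not in RS had medians of the mean CPM of 1.13 in AH and 0.824 in RS, and 101 of them passed in exactly 3 AH cows. The 258 genes detected in RS but not in AH had medians of 0.829 in AH and 1.26 in RS, with 147 passing in exactly 3 RS cows. Ratios over 2-fold were found for 35 of the 181 and 61 of the 258, where the rule itself sets which diet is higher. Of the 208 genes over 2-fold, 112 were detected in both diets. Under the stricter rule of more than 1 CPM in each of the 6 cows, 376 genes counted for AH but not RS and 324 for RS but not AH, so the order of the diets turned.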

How the data were processed

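Papilla RNA was sequenced as paired-end reads. The authors aligned them to UMD3.1 with TopHat2, removed reads with several mapping hits, counted Ensembl genes with HTSeq and deposited CPM, in which a cow's reads on all genes are the base. The extraction text of the labels speaks of rectal tissue and a total RNA kit, and the paper of rumen papillae and mRNA libraries. Which of these holds was not tested. No batch is named in either. For its diet, fermentation, papilla and PCR data the paper names a randomized complete block design, but not which cows formed a block. Dividing each CPM by the worth of 1 read gave whole reads (100% of values within 0.02), which were used in the count tests alone. Within a diet, no library was a second deposit of another, as all 30 pairs of cows of the same diet differed beyond sampling noise (chi-square per degree of freedom 49.2 to 351). Pairs of cows from different diets were not compared in this way.

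From the deposited CPM, log2(CPM + 0.5) was compared with limma 3.58.1 (R 4.3.3, intensity trend, the 12 cows only), which understates the change of low genes, and by two-sided exact permutation tests, with Benjamini-Hochberg adjustment over all 13201 genes. A gene was DE when the adjusted p lay under 0.05 and arithmetic means of CPM differed more than 2-fold. The standard error of a log2 ratio was propagated from the SD of the cows. Alternatives changed pseudocount, filter, scaling, variance model and cows, and used edgeR 4.0.16 and DESeq2 1.42.0 on the recovered reads. The tests were tested on simulated data. Symbols came from the study's table of 73 genes, of which the names, the comparison and the listed direction were used. Genes without a symbol were named by identifier (at most 2 in each direction, largest ratio first, among those that a test called). Genes of the study's AH vs. RS list are named. Of others, those that did not overlap or that 1 cow decided are named, with some further members of the gene lists. Gene lists held 209 symbols, of which 73 were matched, all through the study's table. No gene of the lists of basal keratinocytes, volatile fatty acid transport and proliferation was matched. The values of 1 complement gene are not reported here. Members and lists were chosen with earlier results of these data known. Neighbouring genes came from RefSeq (ARS-UCD2.0). Plots were drawn with Python 3.11.15 and matplotlib 3.10.9.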

Additional observations from a re-analysis of the deposited data

Results flagged for a closer look

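Of 90 groups of 6 cows (45 genes in each diet), 14 held a cow whose gap to its nearest neighbour exceeded 0.625 of the range of the group. Chance flags about 1 in 20 groups of normally distributed values, which CPM need not be, and the genes are not independent. *HSPH1*, *ZFAND2A*, *KRT36*, *C3* and *C7* were included because 1 cow decided them. Flags of these genes are therefore a description, and the count of 14 cannot be set against chance.

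RS5 was the outlying cow in 6 groups. It had 9861 CPM of *HSPA1A*, 1798 of *HSPH1*, 783 of *BAG3*, 598 of *HSPB8*, 77.5 of *ZFAND2A* and 5.67 of *Metazoa_SRP*, where the next RS cows had 1181, 566, 112, 65.2, 5.68 and 1.65 CPM. AH3 was the outlying cow in 4 groups, with 458 CPM of *C7*, 229 of *C3*, 187 of *CFB* and 139.9 of *TGM2*, where the next AH cows had 78.0, 34.7, 67.1 and 28.0 CPM.

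The other flagged values were 49.0 CPM of *TTR* in AH5 (next cow 8.52), 26.3 CPM of *ZFAND2A* in AH1 (next cow 8.29), 472 CPM of *IGLL1* in RS4 (next cow 185) and 161 CPM of *S100A9* in AH4, which was low (next cow 436).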

How the results depend on the processing

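The count of 1 DE gene was 0 without a filter and without the trend, 4 with sample weights, 18 with DESeq2, 129 with the exact test of edgeR, and between 0 and 2 when a cow was left out. It was 0 without AH2, AH6, the first RS cow, RS2, RS3 or RS6, and 2 without AH3 or RS5. Without AH3 and RS5, the ends of the first principal component, it was 6, and without AH3 and RS3, the highest in fibroblast markers, it was 0 (both chosen after seeing the data). *S100A9* kept its direction in all 28 refits, with an adjusted p of 5.38e-10 to 0.133 and log2 ratios of -2.10 to -1.83 with a cow left out. Its adjusted p was 0.113 without a filter and 0.104 without the trend (log2 ratio -2.00 in both), and 0.105 without AH3 and RS3 (-1.95). Genes detected in AH but not in RS numbered 376 when all 6 cows had to pass.

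The direction turned for 7 of the 49 genes. With a cow left out, log2 ratios ranged from -1.12 to 0.83 for *HSPB8*, -1.40 to 0.75 for *BAG3*, -1.16 to 0.86 for *HSPA1A*, -0.89 to 0.49 for *HSPH1*, -1.81 to 1.48 for *ZFAND2A* and -1.44 to 0.62 for *C7* (-0.02 without RS6). Without AH3 and RS5 they were 0.97, 0.92, 1.04, 0.64, 1.71 and -1.51, and for *C7* without AH3 and RS3 -0.999. The ratio of median CPM gave 0.63, 0.68, 0.79, 1.00, 1.00 and -0.51, and 1.69 for *KRT36*. The limma coefficient gave 0.065 for *HSPB8*, 0.18 for *HSPA1A*, 0.059 for *HSPH1*, 0.046 for *ZFAND2A* and -1.05 for *C7*. ENSBTAG00000015676 had no ratio without AH4 or with medians, since AH was then at 0.

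Cows with the same number correlated at -0.49 to 0.71 in their deviations from the diet means, over 0.1 in 2 of 6 pairs. Only 2 AH and 2 RS cows correlated best with their own number, so the numbers were not used as pairs. Whether the numbers follow blocks of the feeding trial is not known. With a replicate block, 1 gene was DE (*S100A9*, adjusted p = 0.0135 with limma) and 318 genes had an unadjusted p under 0.05. TMM scaling moved the share of higher genes among the unadjusted calls from 56.8% to 42.9%, and median-of-ratios scaling to 44.1%.

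The smallest exact p of 6 against 6 cows is 0.0022, and adjustment over the 13201 genes left the lowest adjusted p of that test at 1.00. At the depth of these libraries, counts of 0 leave room for up to 0.169 CPM.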

Other observations

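Among the 22 genes listed as higher in AH, AH5 and AH6 were each the highest AH cow for 7, AH3 was the lowest AH cow for 8, and RS5 was the lowest RS cow for 11. Among the 18 listed as lower, AH4 was the lowest AH cow for 11 and AH3 the highest for 8.

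The 6 cows fed corn stover, which were not part of the comparison, had 1249 to 2419.8 CPM of *S100A9* and 12.8 to 20.6 of *EPHX2*.

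*MT-ATP8*, a mitochondrial subunit of the ATP synthase, lay at 610.4 to 2065 CPM in 2 AH and 3 RS cows and at 0.550 to 3.49 in the other 7, and whether the libraries or their counting differed between these cows was not tested.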
